A study of Mus musculus with 24 samples.

Results

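The transcription factors Spi1, Cebpa, Cebpb, Cebpd, Cebpe, Irf8, Gfi1 and Runx1 direct myeloid development, and their RNA was followed here through 4 sorted progenitor populations of wild-type (WT) and Ikaros-null (KO) mouse bone marrow. Members were the probe sets annotated to these 8 symbols alone, which gave 15 probe sets of 7 genes among 18193 genes measured. No probe set carries Cebpe as its only symbol in the annotation used here, so Cebpe has no value. Each population and genotype had 3 Affymetrix arrays, 24 in all, whose titles call them biological replicates. Whether an array came from 1 animal or a pool is not stated. All mice carried the B-p-GFP-C transgene (C57BL/6 x C3H), in which GFP reports Ikaros regulatory activity, and the KO mice were also of the Ikaros-null I74 line (C57BL/6 x 129SV), so strain and genotype cannot be told apart. LSK (lineage-negative, Sca-1-positive, Kit-positive) and LK (lineage-negative, Kit-positive) cells were each split by GFP. In the labels LSK GFPneg-lo stands for HSC, the stem cells, LSK GFPhi for LMPP, the lymphoid-primed progenitors, LK GFPneg for MEP, which give megakaryocytes and red cells, and LK GFPhi for GMP, which give granulocytes and monocytes. Ages are not given.

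Spi1 encodes PU.1, an ETS domain factor that works by dose: high levels drive macrophage and granulocyte genes, lower levels permit B cell development. The C/EBP proteins are bZIP factors. C/EBP alpha is needed for the step to granulocyte and monocyte progenitors, C/EBP beta serves granulopoiesis under stress, C/EBP delta accompanies granulocyte maturation and acute responses, and C/EBP epsilon serves late granulocyte maturation. Irf8 pairs with PU.1 and favours monocytes and dendritic cells over granulocytes, while Gfi1 is a zinc finger repressor required for neutrophils. Runx1 is the core binding factor under which blood stem cells form and which acts upstream of Spi1. The Ikaros gene, Ikzf1, encodes a DNA-binding factor of lymphoid priming.

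Ikzf1 was lower in KO cells in each population (log2 differences of -3.45 to -4.34), as the genotype labels say. Within groups, Pearson's r between arrays was 0.979 to 0.996 over genes. The mean log2 level of 6 stem cell markers was 9.31 to 9.64 in WT LSK GFPneg-lo and at most 7.57 in the other WT populations. The mean of 7 megakaryocyte and erythroid markers was 11.43 to 11.54 in WT LK GFPneg, that of 8 granulocyte and monocyte progenitor markers 11.16 to 12.28 in WT LK GFPhi, and that of 8 early lymphoid markers 10.81 to 10.96 in WT LSK GFPhi and 10.57 to 10.93 in WT LK GFPhi. The population labelled GMP therefore also carried lymphoid marker RNA. Within KO LK GFPhi, replicate 3 stood apart: the mean of 5 eosinophil markers was 6.48, 7.50 and 8.85 in replicates 1, 2 and 3, against 5.44 to 5.59 in WT, and Dntt, the lymphoid DNA polymerase gene, was 8.48, 8.45 and 11.39. The KO arrays numbered 1 had the highest mean of 12 immediate early genes among the 3 KO arrays of each population (10.23 against 8.83 and 8.76 in LSK GFPneg-lo). Eif2s3y, a Y-linked gene, read 7.88 to 10.4 on the WT arrays and 3.99 to 8.33 on the KO arrays. The KO arrays were split: those numbered 1 read 3.99 to 4.14 and those numbered 2 read 7.20 to 8.33. Those numbered 3 read 7.74 in LK GFPhi and 4.01 to 4.14 in the other populations. The Y-linked signal thus differed with genotype. The members' results are also given without KO LK GFPhi replicate 3 or the 4 KO arrays numbered 1 where that changes a call. List counts named here for LK GFPhi are also given without its KO replicate 3 where they change, and some counts without the arrays numbered 1. These list counts without arrays were added after the data were seen.

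The sequences shown are 4 windows of 250 bases before annotated starts of members that differed between genotypes, from the RefSeq promoter table (GRCm38.p6). The table had 8 entries for 5 of the members (Cebpa, Cebpb, Irf8, Gfi1 and Runx1). Capitals mark matches to 5 motifs, searched on both strands and free to overlap. The Ikaros core was searched as TGGGAA. The ETS motif, of the kind PU.1 binds, was searched as GAGGAA. For the C/EBP factors the motif was TTGCNNAA. For Runx factors the letters were TGTGGT. For GATA factors they were AGATAA.
Cebpa, chr7:35119043-35119292, plus strand: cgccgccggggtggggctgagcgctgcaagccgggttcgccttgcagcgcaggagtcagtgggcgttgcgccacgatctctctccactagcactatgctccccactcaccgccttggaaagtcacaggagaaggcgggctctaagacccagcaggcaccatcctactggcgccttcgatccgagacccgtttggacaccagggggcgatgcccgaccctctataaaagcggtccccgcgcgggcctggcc
Irf8, chr8:120736108-120736357, plus strand, before the outermost start: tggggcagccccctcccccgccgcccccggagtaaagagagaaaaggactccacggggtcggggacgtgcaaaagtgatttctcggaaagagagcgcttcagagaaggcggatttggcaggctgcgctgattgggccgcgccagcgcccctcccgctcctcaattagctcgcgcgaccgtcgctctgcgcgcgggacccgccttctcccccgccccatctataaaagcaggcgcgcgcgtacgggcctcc
Irf8, chr8:120738389-120738638, plus strand, before the internal start: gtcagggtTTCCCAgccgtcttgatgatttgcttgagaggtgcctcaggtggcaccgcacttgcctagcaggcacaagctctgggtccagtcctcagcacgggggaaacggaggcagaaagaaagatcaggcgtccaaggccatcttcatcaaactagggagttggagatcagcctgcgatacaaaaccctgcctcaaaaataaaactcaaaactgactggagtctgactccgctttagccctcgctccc
Gfi1, chr5:107725806-107726055, minus strand, before the outermost start: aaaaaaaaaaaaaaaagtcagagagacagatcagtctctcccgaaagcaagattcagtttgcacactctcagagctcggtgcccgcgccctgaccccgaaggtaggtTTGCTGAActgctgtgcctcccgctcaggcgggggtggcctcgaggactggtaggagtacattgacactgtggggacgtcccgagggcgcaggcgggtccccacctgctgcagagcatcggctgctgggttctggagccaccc

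The window before the outermost Gfi1 start held 1 C/EBP match, which begins at position -143 from the start. The window before the internal Irf8 start held 1 Ikaros core match, at position -242. The Cebpa window and the outer Irf8 window held none of the 5 motifs, and neither did the window before an internal Gfi1 start (chr5:107724344-107724593), which is not shown. Of all 32851 windows of this length in the table, 21.6% held the Ikaros core, 23.3% the ETS motif, 9.56% the C/EBP motif, 14% the Runx motif and 9.99% the GATA motif. Guanine and cytosine made up 66.4% of the Cebpa window, 67.2% of the outer Irf8 window and 59.2% of the outer Gfi1 window, against a median of 52.4% over all windows. A match is a description and not a binding site. In this build Cebpa spans 35119293 to 35121928 on chromosome 7, Irf8 120736358 to 120756694 on chromosome 8 and Gfi1 107716655 to 107725805 on chromosome 5, so the windows of outermost starts lie outside their genes and the internal Irf8 window lies within Irf8. Spi1 (91082374 to 91115759) and Cebpb (167688915 to 167690432) on chromosome 2, and Cebpd (15887286 to 15889545) and Runx1 (92601466 to 92826074) on chromosome 16.

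In WT cells the 7 measured factors had their lowest group means in LK GFPneg and were higher in both GFPhi populations. All values are log2 signal after RMA, a difference is the first group minus the second with its limma standard error (3 arrays a group), and a gene was called where limma's adjusted p fell below 0.05. The levels of different genes rest on different probes and are not set against each other. In these bulk samples, fewer cells of a type and less RNA per cell cannot be told apart. WT LK GFPhi exceeded WT LK GFPneg for 7 of 7 factors, against 18.6% of all genes called in either direction. WT LSK GFPhi exceeded WT LK GFPneg for the same 7, against 29.1% of genes.

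Spi1 in WT cells was 7.98, 8.33 and 8.06 in LSK GFPneg-lo, 8.53, 8.95 and 8.65 in LSK GFPhi, 6.60, 6.96 and 6.25 in LK GFPneg, and 8.09, 9.37 and 9.18 in LK GFPhi. LK GFPneg lay below every other array, and replicate 1 of LK GFPhi fell within the LSK GFPneg-lo range. Its order was LK GFPneg, LSK GFPneg-lo, LSK GFPhi, LK GFPhi, and neither LSK GFPhi against LSK GFPneg-lo (0.59 ± 0.24, adjusted p = 0.243) nor LK GFPhi against LSK GFPhi (0.17 ± 0.24, adjusted p = 0.800) was called. Spi1 was 2.28 ± 0.24 higher in LK GFPhi than in LK GFPneg (adjusted p = 4.26e-07).

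Cebpa, the C/EBP gene required for granulocyte and monocyte progenitors, was 8.79, 8.59 and 8.77 in WT LSK GFPneg-lo, 9.67, 9.88 and 9.995 in LSK GFPhi, 7.20, 7.21 and 7.22 in LK GFPneg, and 10.30, 10.13 and 10.70 in LK GFPhi. The 4 groups did not overlap. LSK GFPhi exceeded LSK GFPneg-lo by 1.13 ± 0.17 (adjusted p = 0.000270), and the last step to LK GFPhi (0.53 ± 0.17) missed the threshold (adjusted p = 0.0975). Without WT LK GFPhi replicate 2 that step was called (0.65, adjusted p = 0.0353).

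Cebpd showed a stepwise order in WT cells. It was 7.31, 7.19 and 7.87 in LSK GFPneg-lo, 8.17, 8.38 and 8.61 in LSK GFPhi, 6.79, 7.39 and 6.88 in LK GFPneg, and 9.71, 9.40 and 9.83 in LK GFPhi. LK GFPneg and LSK GFPneg-lo overlapped (-0.44 ± 0.21, adjusted p = 0.153), whereas LSK GFPhi exceeded LSK GFPneg-lo (0.93 ± 0.21, adjusted p = 0.0123) and LK GFPhi exceeded LSK GFPhi (1.26 ± 0.21, adjusted p = 0.00158). The step within LSK was not called without WT LSK GFPneg-lo replicate 1 (0.86, adjusted p = 0.0659) or 2 (0.80, adjusted p = 0.0777) or WT LSK GFPhi replicate 3 (0.82, adjusted p = 0.0634).

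Cebpb was 7.97, 8.56 and 8.46 in WT LSK GFPneg-lo, 7.97, 8.48 and 9.01 in LSK GFPhi, 7.31, 7.66 and 7.01 in LK GFPneg, and 9.36, 8.58 and 9.07 in LK GFPhi. LK GFPneg was below the other 3 populations, by 1.01 to 1.68. No pair of the other 3 was called (LK GFPhi against LSK GFPneg-lo, 0.67 ± 0.28, adjusted p = 0.138). On the second Cebpb probe set that pair was called (0.42 ± 0.11, adjusted p = 0.0210 in the fit of all probe sets). The call of LK GFPneg against LSK GFPneg-lo was lost without WT LK GFPneg replicate 3 (-0.85, adjusted p = 0.0606). The second probe sets of Cebpb and Cebpd varied little, with group means from 5.28 to 5.78 and from 6.40 to 6.81, and they carried none of the KO differences given below.

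Irf8, the partner of PU.1 in monocyte and dendritic cell development, had the widest range of the members' means among WT populations. Its values were 7.15, 7.67 and 7.76 in LSK GFPneg-lo, 9.54, 10.92 and 9.97 in LSK GFPhi, 6.57, 7.21 and 7.15 in LK GFPneg, and 11.09, 11.90 and 11.25 in LK GFPhi. Both GFPhi populations lay above all other WT arrays. LSK GFPhi exceeded LSK GFPneg-lo by 2.62 ± 0.31 (adjusted p = 1.12e-05), and LK GFPhi exceeded LK GFPneg by 4.43 ± 0.31, or 21.6-fold (adjusted p = 9.42e-10). On the second Irf8 probe set that step was 6.35 ± 0.33, or 81.7-fold. LK GFPhi also exceeded LSK GFPhi, by 1.27 ± 0.31 (adjusted p = 0.0206). This last call was lost without WT LSK GFPhi replicate 1 (0.97, adjusted p = 0.126) or 3 (1.18, adjusted p = 0.0630) and without WT LK GFPhi replicate 2 (1.03, adjusted p = 0.0573) or 3 (1.35, adjusted p = 0.0554). The second Irf8 probe set gave a larger step there (1.76 ± 0.33, adjusted p = 0.00438 in the fit of all probe sets), and also placed LK GFPneg below LSK GFPneg-lo (-1.42 ± 0.33, adjusted p = 0.00304). On the first probe set that pair was not called (-0.55 ± 0.31, adjusted p = 0.227) and was called with the replicate number as a block (0.0472).

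Gfi1, the neutrophil repressor, differed from Irf8 in its order. It was 9.76, 9.04 and 9.88 in WT LSK GFPneg-lo, 10.07, 9.51 and 10.08 in LSK GFPhi, 5.91, 6.10 and 6.44 in LK GFPneg, and 9.96, 9.23 and 10.15 in LK GFPhi. The 3 populations other than LK GFPneg overlapped and no pair of them was called (differences of -0.11 to 0.32). LK GFPneg was 3.41 ± 0.30 lower than LSK GFPneg-lo (a difference of -3.41, adjusted p = 4.42e-08).

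Runx1 varied least. Its values were 10.68, 11.16 and 10.63 in WT LSK GFPneg-lo, 10.46, 10.85 and 10.54 in LSK GFPhi, 9.46, 9.52 and 9.10 in LK GFPneg, and 10.20, 11.02 and 10.41 in LK GFPhi. LK GFPneg was below the rest, by 1.18 ± 0.31 against LK GFPhi (adjusted p = 0.00896), and the other 3 overlapped. That call was lost without WT LK GFPneg replicate 3 (1.05, adjusted p = 0.0506) or WT LK GFPhi replicate 2 (0.94, adjusted p = 0.0665). Among 5 further Runx1 probe sets, 2 were also higher in WT LK GFPhi than in LK GFPneg (1.17 ± 0.32 and 0.75 ± 0.18). On another, WT replicate 2 read 8.66 in LSK GFPneg-lo, 8.47 in LSK GFPhi and 8.59 in LK GFPhi, against 6.21 to 7.13 in the other WT replicates of those populations. The last 2 probe sets spanned 0.41 and 0.52 over the 8 group means.

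Across the remaining WT pairs, LSK GFPhi exceeded LSK GFPneg-lo for 3 factors (Cebpa, Cebpd and Irf8; 4.52% of genes were called), and LK GFPneg was below LSK GFPneg-lo for the 5 others than Cebpd and Irf8 (27.1%). LK GFPhi exceeded LSK GFPhi for Cebpd and Irf8 (4.55%) and LSK GFPneg-lo for Spi1, Cebpa, Cebpd and Irf8 (12.6%). The Spi1 call against LSK GFPneg-lo (0.76 ± 0.24, adjusted p = 0.0451) was lost without any of the 3 WT LSK GFPneg-lo arrays (adjusted p of 0.145, 0.0545 and 0.116 without replicates 1, 2 and 3) and without WT LK GFPhi replicate 2 (0.51, adjusted p = 0.195) or 3 (0.61, adjusted p = 0.213). Without WT LK GFPhi replicate 1 the difference was 1.15. Over all 8 groups the span between the highest and the lowest group mean was 1.83 for Runx1, 2.82 for Cebpb, 2.91 for Spi1, 3.84 for Cebpd, 3.89 for Cebpa, 4.43 for Irf8 and 5.14 for Gfi1, against a median of 0.47 over all genes. These spans are of each gene's brightest probe set, and the second Irf8 probe set spanned 6.35, more than Gfi1.

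**Figure D1:**
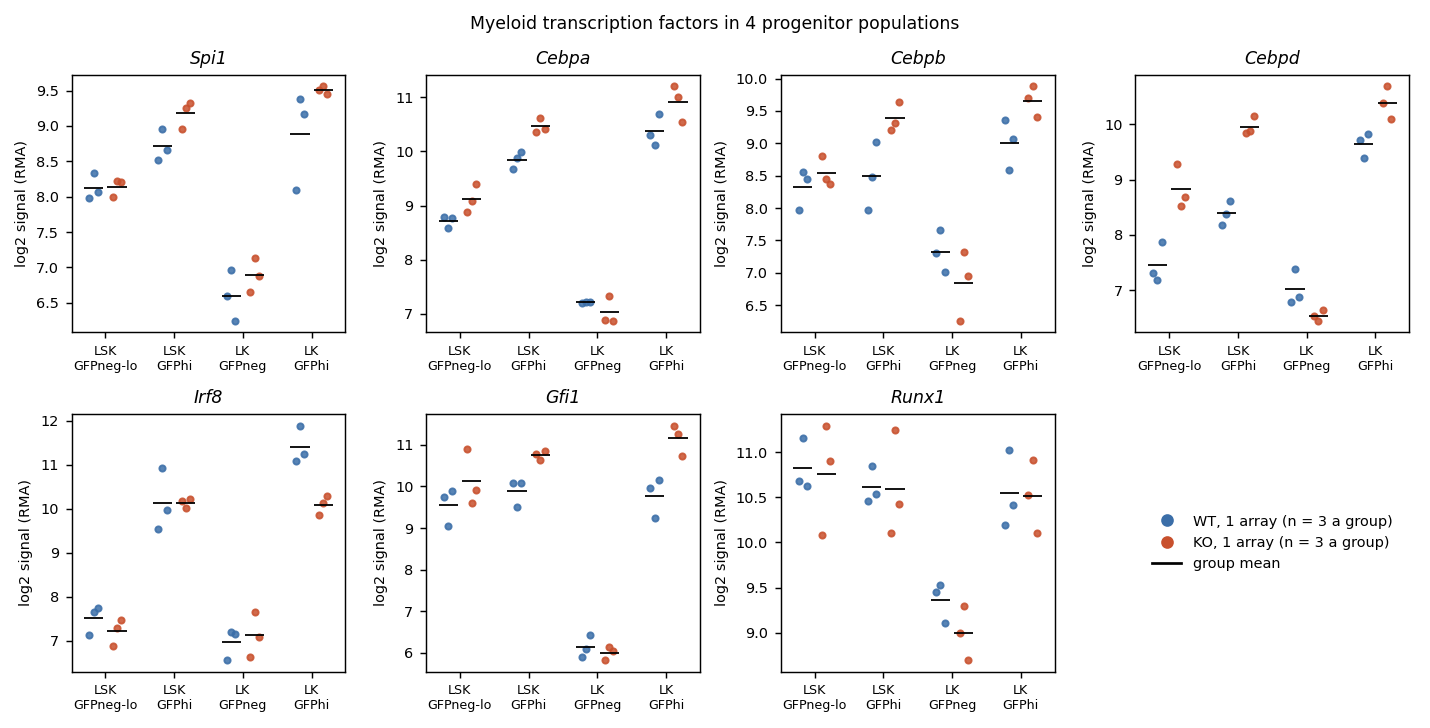
Log2 signal (RMA) of the 7 measured factors in 4 populations, 1 panel a gene, with WT arrays in blue, KO arrays in orange and the group mean of 3 arrays as a bar. Every factor is lowest in LK GFPneg by its group means; Irf8 in LK GFPhi is lower on all 3 KO arrays (9.86 to 10.29) than on the WT arrays (11.09 to 11.90), and Cebpd in both LSK populations is higher on all KO arrays.

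The KO populations kept the low point in LK GFPneg. KO LK GFPhi and KO LSK GFPhi exceeded KO LK GFPneg for 7 of 7 factors (23.4% and 25.9% of genes were called). KO LK GFPneg was below KO LSK GFPneg-lo for 6, with Irf8 not called (-0.09 ± 0.31; 22.7% of genes). KO LK GFPhi exceeded KO LSK GFPneg-lo for the 6 others than Runx1 (11.3%). KO LSK GFPhi exceeded KO LSK GFPneg-lo for Spi1, Cebpa, Cebpd and Irf8 (2.36%). Between KO LK GFPhi and KO LSK GFPhi no factor was called by limma (1.18% of genes), and 1, Cebpa, had an unadjusted p below 0.05. The mean of Irf8 was 10.14 ± 0.11 (SD, n = 3) for KO LSK GFPhi and 10.09 ± 0.22 for LK GFPhi of the same genotype, where the WT means were 10.14 ± 0.71 and 11.41 ± 0.43.

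Several of these KO calls were lost when 1 array was left out, while the difference stayed in the same direction. The Spi1 call in KO LSK GFPhi against KO LSK GFPneg-lo (1.04 ± 0.24, adjusted p = 0.0217) was lost without KO LSK GFPneg-lo replicate 1 (0.97, adjusted p = 0.101), 2 (1.08, 0.0559) or 3 (1.07, 0.0600) and without KO LSK GFPhi replicate 2 (1.001, 0.0833) or 3 (0.97, 0.110). For Gfi1 in KO LK GFPhi against KO LSK GFPneg-lo (1.02 ± 0.30, adjusted p = 0.0347) it was lost without KO LSK GFPneg-lo replicate 2 (0.75, adjusted p = 0.161) or 3 (0.90, 0.112) or KO LK GFPhi replicate 1 (0.86, 0.107) or 2 (0.96, 0.0971). The Cebpb call in the same pair (1.12 ± 0.28, adjusted p = 0.0124) was lost without KO LK GFPhi replicate 2 (1.01, adjusted p = 0.0536).

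Set against WT, KO cells of each population show how the factors stand without Ikaros. Cebpd, Cebpa and Gfi1 were each called higher in KO cells of at least 1 population, Irf8 was lower in LK GFPhi, and Runx1 was not called in any population on any of its probe sets. Cebpd rose in 3 of 4 populations, by 1.37 in LSK GFPneg-lo, 1.57 in LSK GFPhi and 0.74 in LK GFPhi. Cebpa rose in LSK GFPhi (0.61), and in LK GFPhi Gfi1 rose (1.37) and Irf8 fell (-1.32). In LSK GFPneg-lo, 1 of 7 factors was called, against 2.14% of genes (1.26% higher and 0.879% lower in KO). In LSK GFPhi, 2 of 7 were called, against 4.6% (2.91% higher, 1.69% lower). In LK GFPneg, limma called 0 of 7 (1, Cebpd, at an unadjusted p below 0.05), against 2.65% (1.2% higher, 1.45% lower). In LK GFPhi, 3 of 7 were called, against 9.56% (5.78% higher, 3.79% lower), and without its KO replicate 3, 4 of 7 were called. WT and KO arrays did not overlap for 2, 5, 1 and 5 of the 7 factors in these populations, against 15.9%, 16.5%, 13.9% and 24.8% of all genes.

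The scaling of the arrays moved the split of all called genes. After centring each array on its median, the share of called genes that were higher in KO went from 58.9% to 47.3% in LSK GFPneg-lo, from 63.3% to 53.3% in LSK GFPhi and from 60.4% to 35.5% in LK GFPhi. The centring moved the median of all genes in LK GFPhi from 0.07 to -0.05. The Cebpa call in LSK GFPhi (0.56, adjusted p = 0.0792) and the Cebpd call in LK GFPhi (0.61, adjusted p = 0.0949) were lost under it, with the directions kept.

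Cebpd, which rises with granulocyte maturation, was 9.29, 8.53 and 8.68 in KO LSK GFPneg-lo and 9.85, 9.88 and 10.14 in KO LSK GFPhi. Each KO array lay above every WT array of its population. The differences were 1.37 ± 0.21 (2.59-fold, adjusted p = 0.000723) and 1.57 ± 0.21 (2.96-fold, adjusted p = 6.89e-05). The first was not called in a fit of those 2 groups alone (adjusted p = 0.0597). In KO LK GFPhi the values were 10.38, 10.68 and 10.08, again above the WT arrays (0.74 ± 0.21, 1.67-fold, adjusted p = 0.0349). Leaving out WT LK GFPhi replicate 1 (0.77, adjusted p = 0.0749), 2 (0.61, 0.107) or 3 (0.83, 0.0505), or KO LK GFPhi replicate 1 (0.74, 0.0592) or 2 (0.59, 0.145), ended that call, and without KO LK GFPhi replicate 3 it stood (0.89, adjusted p = 0.0279). In KO LK GFPneg the order turned: 6.53, 6.45 and 6.64 lay below the WT arrays, a difference of -0.48 ± 0.21 that was not called (adjusted p = 0.436). Averaging both Cebpd probe sets lowered the differences to 0.73, 0.82 and 0.42 in the first 3 populations named, since the second probe set is nearly flat.

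In the fit that gave all comparisons, Cebpd was the 1 member whose KO effect was called as different between populations. Under some alternatives Cebpa, Cebpb, Irf8 and Gfi1 were called in a difference as well. With the replicate number as a block, Irf8 and Gfi1 were called in the difference between the LK effects too (their values are given with each gene). The member calls over the 6 differences then went from 3 to 6. The labels do not state such a pairing, and the KO arrays numbered 3 read 4.14 in LK GFPneg and 7.74 in LK GFPhi for Eif2s3y. Without the block, the Cebpd effect in LSK GFPhi exceeded that in LK GFPneg by 2.04 ± 0.30 (adjusted p = 0.000400, 1.97% of genes called). Its effect in LK GFPneg was below that in LSK GFPneg-lo by 1.85 (-1.85 ± 0.30, adjusted p = 0.00280, 0.808% of genes). Its effect in LK GFPhi exceeded that in LK GFPneg by 1.21 ± 0.30 (adjusted p = 0.0341, 2.5% of genes). This call was lost without WT LK GFPneg replicate 2 (1.03, adjusted p = 0.114), WT LK GFPhi replicate 1 (1.25, 0.0579) or 2 (1.09, 0.0893), KO LK GFPneg replicate 1 (1.21, 0.0701), 2 (1.17, 0.0668) or 3 (1.26, 0.0549), or KO LK GFPhi replicate 1 (1.22, 0.0570) or 2 (1.06, 0.0946). No factor was called by limma in the differences of LSK GFPhi from LSK GFPneg-lo (0.313% of genes; 0 of 7 factors at an unadjusted p below 0.05), LK GFPhi from LSK GFPhi (0.143%; 2 factors) or LK GFPhi from LSK GFPneg-lo (1.03%; 2 factors).

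Cebpa was 8.88, 9.09 and 9.41 in LSK GFPneg-lo of KO mice, 10.36, 10.61 and 10.41 in their LSK GFPhi cells, 6.89, 7.33 and 6.87 in their LK GFPneg cells and 11.20, 10.9998 and 10.54 in their LK GFPhi cells. KO arrays lay above all WT arrays in both LSK populations, and overlapped with WT in both LK populations. The rise in LSK GFPhi was 0.61 ± 0.17 (1.53-fold, adjusted p = 0.0477). It stands at the threshold: leaving out any of the 6 arrays ended the call, with differences from 0.53 (without WT replicate 1, adjusted p = 0.229) to 0.69 (without WT replicate 3, 0.0625). Adjusted p was 0.101 without WT replicate 2 and 0.0757, 0.213 and 0.114 without KO replicates 1, 2 and 3. In LK GFPhi the difference of 0.54 ± 0.17 missed the threshold (adjusted p = 0.0560) and passed it with the replicate number as a block (0.0340), without WT LK GFPhi replicate 3 (0.70, adjusted p = 0.0248) and without KO LK GFPhi replicate 3 (0.73, adjusted p = 0.0153). In LSK GFPneg-lo it was 0.41 ± 0.17 (adjusted p = 0.391).

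Cebpb was 8.80, 8.45 and 8.37 in LSK GFPneg-lo of KO mice, 9.21, 9.32 and 9.63 in their LSK GFPhi cells, 6.26, 7.32 and 6.95 in their LK GFPneg cells and 9.69, 9.88 and 9.40 in their LK GFPhi cells. In both GFPhi populations every KO array lay above every WT array. Neither difference was called (0.90 ± 0.28, adjusted p = 0.0807 in LSK GFPhi; 0.66 ± 0.28, 0.147 in LK GFPhi). Without WT LSK GFPhi replicate 3 the first was called (1.16, adjusted p = 0.0273).

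Spi1 was 7.998, 8.22 and 8.20 in LSK GFPneg-lo of KO mice, 8.96, 9.25 and 9.32 in their LSK GFPhi cells, 6.64, 7.14 and 6.88 in their LK GFPneg cells and 9.51, 9.56 and 9.46 in their LK GFPhi cells. KO arrays lay above the WT arrays in both GFPhi populations, by 0.47 ± 0.24 (adjusted p = 0.495) and 0.63 ± 0.24 (adjusted p = 0.110), neither called. In LK GFPhi 1 WT array weighs on the value. Without WT replicate 1, which read 8.09, the difference was 0.23 (adjusted p = 0.522), while without WT replicate 2 it was called (0.88, adjusted p = 0.0294). With the replicate number as a block it was called as well (0.63, adjusted p = 0.0203).

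Irf8 fell in LK GFPhi. KO LK GFPhi read 9.86, 10.13 and 10.29, all below the lowest WT array (11.09), a difference of -1.32 ± 0.31, or 2.49-fold (adjusted p = 0.00897). The call held without each array in turn (-1.08 to -1.48, adjusted p of at most 0.0445), and without KO LK GFPhi replicate 3 it was -1.42. The second Irf8 probe set read 12.31, 12.32 and 12.09 in WT and 10.44, 10.01 and 11.68 in KO LK GFPhi, and was also called (-1.53 ± 0.33, adjusted p = 0.00569 in the fit of all probe sets). Its KO replicate 3 lay close to the WT arrays, unlike on the first probe set. On the first probe set Irf8 overlapped between genotypes in the other populations: KO arrays read 6.89, 7.30 and 7.47 in LSK GFPneg-lo, 10.19, 10.02 and 10.22 in LSK GFPhi, and 6.64, 7.66 and 7.09 in LK GFPneg. On the second, the KO arrays of LSK GFPneg-lo (6.63, 6.98 and 6.75) lay below the WT arrays (7.06, 7.31 and 7.56), a difference that was not called (-0.52 ± 0.33, adjusted p = 0.770). The difference of the Irf8 effect between LK GFPhi and LK GFPneg was -1.47 ± 0.44 (adjusted p = 0.0958), and was called with the replicate number as a block (adjusted p = 0.00460).

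Gfi1 moved the other way in LK GFPhi. KO LK GFPhi read 11.46, 11.27 and 10.73, above every WT array (1.37 ± 0.30, 2.59-fold, adjusted p = 0.00567). Without KO LK GFPhi replicate 3 the rise was 1.59 (adjusted p = 0.00527), and in a fit of those 2 groups alone it was not called (adjusted p = 0.0616). KO LSK GFPhi read 10.77, 10.64 and 10.86, also above its WT arrays, but the difference was not called (0.87 ± 0.30, adjusted p = 0.138). It was called in a fit of those 2 groups alone (adjusted p = 0.0333). KO LSK GFPneg-lo read 10.91, 9.59 and 9.91 and KO LK GFPneg 5.83, 6.15 and 6.04, both overlapping with WT. The Gfi1 effect in LK GFPhi exceeded that in LK GFPneg by 1.51 ± 0.43 (adjusted p = 0.0716), which was called with the replicate number as a block (0.0223) and without KO LK GFPhi replicate 3 (1.73, adjusted p = 0.0445).

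Runx1 was 10.08, 11.30 and 10.90 in LSK GFPneg-lo of KO mice, 10.10, 11.25 and 10.42 in their LSK GFPhi cells, 8.998, 9.30 and 8.70 in their LK GFPneg cells and 10.52, 10.91 and 10.11 in their LK GFPhi cells. On this brightest probe set WT and KO overlapped in all 4 populations, and the differences were -0.36 to -0.02 with a standard error of 0.31 each. None of its 6 probe sets was called. The largest difference was that of 1 of the other probe sets in LK GFPhi (0.76 ± 0.32, adjusted p = 0.154). On a further one the KO arrays of LSK GFPhi (8.15, 8.36 and 8.21) lay above the WT arrays (7.51, 8.11 and 7.77), by 0.45 ± 0.18 (adjusted p = 0.300). The other 5 probe sets had differences from -0.15 to 0.76, so the sign depends on the probe set.

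**Figure D2:**
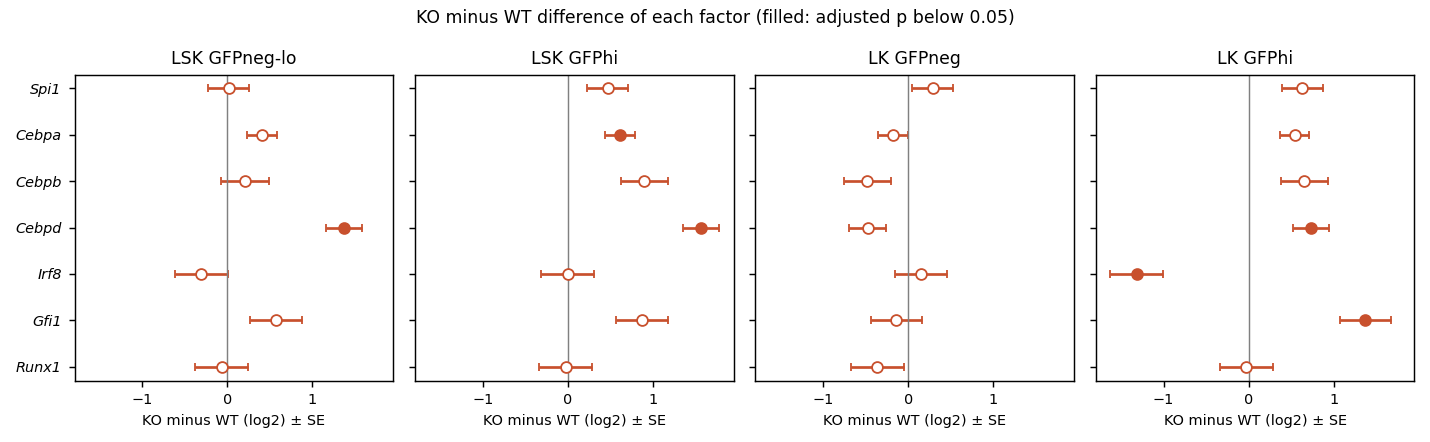
KO minus WT difference (log2) of each factor in the 4 populations, with limma's standard error as bars. Filled points passed the adjusted p threshold: Cebpd in 3 populations, Cebpa in LSK GFPhi, and Irf8 (-1.32) and Gfi1 (1.37) in LK GFPhi.

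**Figure D3:**
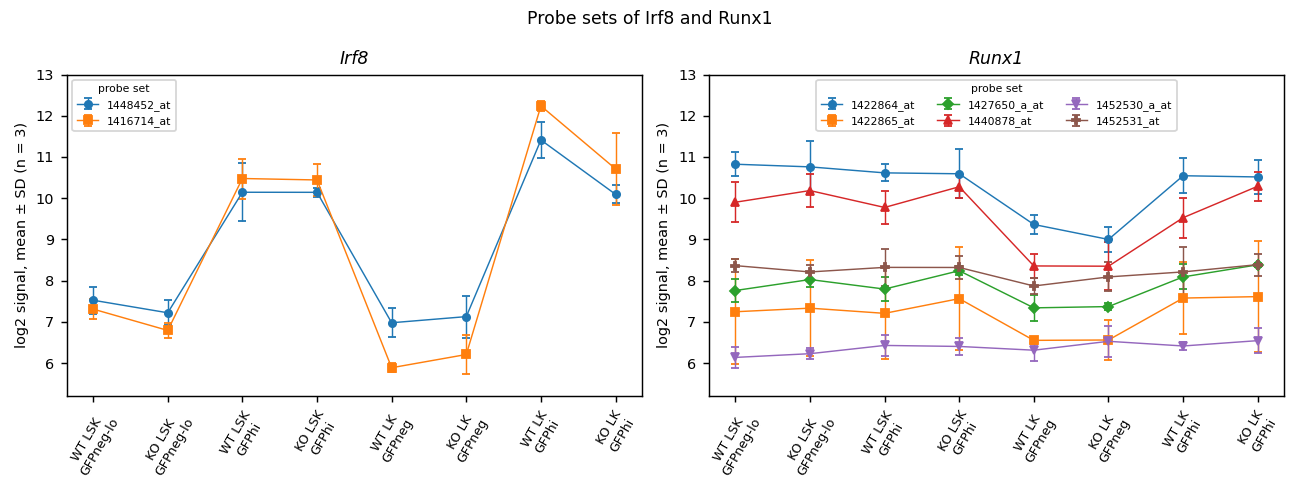
Log2 signal of the 2 Irf8 and 6 Runx1 probe sets in the 8 groups (mean ± SD, n = 3). Both Irf8 probe sets peak in WT LK GFPhi and are lower in KO LK GFPhi, while the Runx1 probe sets differ: the brightest is lowest in LK GFPneg, and the dimmest (purple triangles) spans 0.41 over the 8 group means.

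Averaged over the 4 populations, Cebpd (0.80 ± 0.11), Gfi1 (0.67 ± 0.15) and Cebpa (0.35 ± 0.09) were called higher in KO cells, 3 of 7 against 16.1% of genes. Spi1 (0.35 ± 0.12, adjusted p = 0.0545), Cebpb (0.32 ± 0.14), Irf8 (-0.37 ± 0.15) and Runx1 (-0.12 ± 0.16) were not. This average took the arrays of the 4 populations as independent. Residuals of same-numbered arrays had r from -0.0891 to 0.751, so its standard errors may be too small. With Eif2s3y as a covariate the averages of Cebpa (0.41, adjusted p = 0.127) and Gfi1 (0.62, adjusted p = 0.201) were no longer called. That covariate also ended the calls of Cebpa in LSK GFPhi (0.68, adjusted p = 0.117) and Cebpd in LK GFPhi (0.61, adjusted p = 0.128), as did leaving out the 4 KO arrays numbered 1 (0.66, 0.0556 and 0.74, 0.0530). The calls of Cebpd in both LSK populations and of Irf8 and Gfi1 in LK GFPhi held under both.

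Marker RNA of several cell types moved with these results. As a background, 1.26% of all genes were called higher and 0.879% lower in LSK GFPneg-lo, 2.91% and 1.69% in LSK GFPhi, and 5.78% and 3.79% in LK GFPhi. In KO LK GFPhi, 3 of 5 eosinophil markers rose, and of 9 mast cell and basophil markers 5 rose (mean level 8.18 to 9.02 in KO against 6.80 to 7.24 in WT). Of 9 mature neutrophil markers 5 rose (7.15 to 7.50 against 6.01 to 6.31), and all 8 early lymphoid markers fell (8.46 to 9.28 against 10.57 to 10.93). In KO LSK GFPhi 8 of 8 early lymphoid markers fell as well (9.18 to 9.57 against 10.81 to 10.96), and 3 of 9 macrophage markers rose (7.01 to 7.46 against 6.26 to 6.32). Of 8 granulocyte and monocyte progenitor markers, 3 rose in LSK GFPneg-lo (9.79 to 10.42 against 9.06 to 9.41) and 3 in LSK GFPhi (11.52 to 11.63 against 10.49 to 10.66). In LK GFPhi 1 of these 8 rose (12.26 to 12.48 against 11.16 to 12.28). There limma called 0 without KO replicate 3 (3 at an unadjusted p below 0.05) and 0 without the 4 KO arrays numbered 1 (2 at an unadjusted p below 0.05). In LSK GFPneg-lo 2 of 8 early lymphoid markers fell (7.85 to 8.08 against 8.41 to 8.74), and 1 mast cell and basophil and 2 macrophage markers rose. KO LK GFPhi replicate 3, the highest in eosinophil markers, was the lowest of its group for 6 of the 7 factors and the highest for Irf8. Without it, 3 eosinophil, 5 mast cell and basophil and 5 mature neutrophil markers were still called higher, and 7 of 8 early lymphoid markers lower. Of 7 megakaryocyte and erythroid markers, 3 rose in LK GFPhi (8.55 to 9.76 in KO against 7.40 to 7.98 in WT), and 2 without that array. Leaving out the 4 KO arrays numbered 1 gave 6 mast cell and basophil markers higher and 7 of 8 early lymphoid markers lower in LK GFPhi. It gave 6 of 8 early lymphoid markers lower in LSK GFPhi and 1 in LSK GFPneg-lo. The part of these cells in the factors' differences was not tested. The marker lists share genes with the target lists given next (Lcn2, Camp, Ngp, Cd14, Cd68 and Csf1r among them). Array signal has no true zero, so no marker can be said to be absent.

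The textbook targets of Spi1 and Irf8 moved in both directions in KO cells. Of 15 measured, 3 rose in LSK GFPneg-lo, 5 rose and 1 fell in LSK GFPhi, and 5 rose and 2 fell in LK GFPhi. Over all genes 1.26%, 2.91% and 5.78% were called higher and 0.879%, 1.69% and 3.79% lower there. In LK GFPneg limma called 0 (1 at an unadjusted p below 0.05). Medians were 0.27, 0.55, 0.00 and 0.38 in LSK GFPneg-lo, LSK GFPhi, LK GFPneg and LK GFPhi, beside 0.03, 0.01, 0.04 and 0.07 over all genes. Cd14, the lipopolysaccharide co-receptor gene, rose by 0.98 ± 0.22, 2.13 ± 0.22 and 1.79 ± 0.22 in LSK GFPneg-lo, LSK GFPhi and LK GFPhi. Csf1r, the M-CSF receptor gene, rose by 1.46 ± 0.24 in LSK GFPneg-lo and 1.27 ± 0.24 in LSK GFPhi, and Cd68, a lysosomal macrophage glycoprotein gene, by 1.40 ± 0.24 and 1.47 ± 0.24. The lipopolysaccharide receptor gene Tlr4 rose by 1.76 ± 0.22 in LK GFPhi and 1.07 ± 0.22 in LSK GFPhi. The lysozyme gene Lyz2 rose by 1.02 ± 0.26 in LSK GFPhi and 1.25 ± 0.26 in LK GFPhi, where Csf2ra, a GM-CSF receptor chain (0.93 ± 0.17), and the Fc receptor gene Fcgr3 (1.29 ± 0.38) rose too. The genes that fell were Ly86, which encodes the MD-1 partner of a Toll-like receptor relative (-2.55 ± 0.30 in LK GFPhi), and the cathepsin gene Ctss (-1.36 ± 0.35 in LSK GFPhi and -1.43 ± 0.35 in LK GFPhi). Without KO LK GFPhi replicate 3, 4 rose and 2 fell in LK GFPhi, with Fcgr3 no longer called. The same was found there without the 4 KO arrays numbered 1. In that setting only Csf1r and Cd68 were called in LSK GFPneg-lo, so the Cd14 call there was lost. In LSK GFPhi 4 rose and 1 fell in that setting, with Lyz2 no longer called.

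Textbook targets of the C/EBP factors were called in 1 direction. Of 17 measured, 2 rose in LSK GFPneg-lo, 3 in LSK GFPhi and 4 in LK GFPhi, and none was called as lower in these 3 populations. Over all genes 1.26%, 2.91% and 5.78% were called higher there. In LK GFPneg limma called 0 (1 at an unadjusted p below 0.05). Medians were 0.17, 0.21, 0.00 and 0.35 in the same order of populations. Lcn2, the neutrophil granule protein lipocalin 2, went from 4.53 to 8.26 in LSK GFPhi (3.73 ± 0.30) and from 5.27 to 10.02 in LK GFPhi (4.75 ± 0.30). The azurophil granule proteases Ctsg (1.43 ± 0.29) and Prtn3 (1.25 ± 0.27) rose in LSK GFPneg-lo, and Ctsg (1.17 ± 0.29) and the progenitor gene Ms4a3 (2.36 ± 0.49) in LSK GFPhi. In LK GFPhi the secondary granule genes Camp (0.84 ± 0.20) and Ngp (0.51 ± 0.11) and the ficolin gene Fcnb (0.59 ± 0.15) rose. Camp went from 6.09 to 6.93 and Ngp from 6.66 to 7.17, low levels beside array medians of 6.57 to 6.75. Fcnb was not called without KO LK GFPhi replicate 3, and the other 3 were. The remaining targets, among them Mpo, Elane and Csf3r, were not called.

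**Figure D4:**
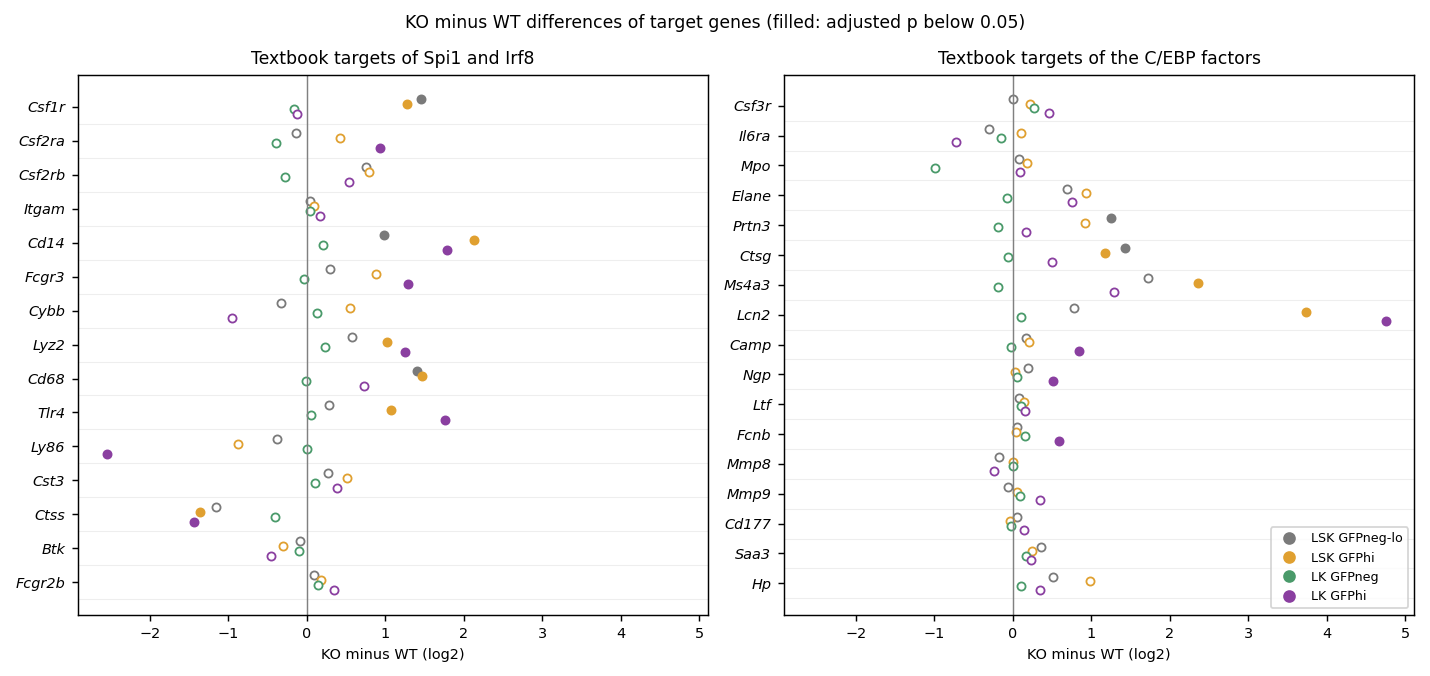
KO minus WT difference (log2) of the measured textbook targets of Spi1 and Irf8 (left) and of the C/EBP factors (right), coloured by population, filled where the adjusted p passed the threshold. Lcn2 is farthest to the right (4.75 in LK GFPhi), Ly86 farthest to the left (-2.55 in LK GFPhi), and the LK GFPneg points lie near 0 for most genes.

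Of 9 measured factors listed as opposing the myeloid program, 5 rose in KO LK GFPhi. They were the erythroid and mast cell factors Gata1 (2.14 ± 0.45) and Gata2 (1.39 ± 0.18), their partners Tal1 (1.09 ± 0.20) and Zfpm1 (1.25 ± 0.28), and the erythroid factor Klf1 (1.27 ± 0.36). The name is only that of the list: 3 of 5 eosinophil and 5 of 9 mast cell and basophil markers rose in the same population. The list median was 1.09, and 5.78% of all genes were called higher there. Gata1 was 8.53, 9.51 and 10.99 on the KO arrays against 7.49, 7.50 and 7.62 in WT, with replicate 3 again the highest. Without that array 4 of the 9 were called, Klf1 no longer, the median was 0.64 and Gata1 was 1.49 ± 0.39 higher. In LK GFPneg Gata2 fell (-0.77 ± 0.18), the 1 call of the list there. In both LSK populations limma called 0 of the 9 (0 and 2 at an unadjusted p below 0.05 in LSK GFPneg-lo and LSK GFPhi). Without the 4 KO arrays numbered 1, Gata1, Gata2 and Tal1 were called higher in LSK GFPhi.

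Among relatives and partners of the members, 4 of 9 IRF relatives were called in LSK GFPhi (4.6% of all genes were) and at most 1 gene of each other list of relatives or partners in any population. Over all genes 2.14% were called in LSK GFPneg-lo, 2.65% in LK GFPneg and 9.56% in LK GFPhi. A single call of a list in LK GFPhi is near that share. Trib2, the adaptor that leads C/EBP alpha to degradation, fell by 1.06 in LSK GFPneg-lo (-1.06 ± 0.18) and by 0.90 in LSK GFPhi (-0.90 ± 0.18), the calls of the 7 measured C/EBP relatives and regulators. Among 9 IRF relatives and partners, Irf7 (-1.08 ± 0.22), Irf9 (-0.68 ± 0.16) and Irf4 (-0.41 ± 0.11) fell in LSK GFPhi, where Id2, the helix-loop-helix inhibitor, rose (1.82 ± 0.47), and Irf9 fell in LK GFPhi (-0.62 ± 0.16). Of 10 ETS relatives, Ets2 rose in LSK GFPhi (0.84 ± 0.22) and Elf1 fell in LK GFPhi (-0.88 ± 0.27). Of 8 Gfi1 relatives and cofactors, the corepressor gene Rcor1 fell in LK GFPhi (-0.87 ± 0.27), and of 11 monocyte and granulocyte factors, Maf rose in LSK GFPhi (1.73 ± 0.35) and Egr2 in LK GFPhi (0.48 ± 0.10). Egr2 went from 5.69 to 6.18 there, both below the lowest array median of 6.57. The Elf1 and Rcor1 calls were lost without KO LK GFPhi replicate 3, where the ETS gene Ets1 was called lower. Without the KO arrays numbered 1 the calls of Ets2, Irf4, Irf9, Id2 and Rcor1 were lost. None of 7 Runx relatives was called by limma in any population, with 0 to 2 at an unadjusted p below 0.05.

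The members' group means followed each other over the 8 groups, which share arrays between genes, so r is a description. Spi1 and Cebpa had r = 0.988, Cebpa and Cebpb 0.974, and Irf8 and Runx1 0.489, the lowest pair. Among 4054 genes whose group means spanned at least 1 log2 unit, the 3 nearest to Spi1 were Gramd3 (r = 0.993), Krtcap2 (0.993) and Cebpa (0.988). Nearest to Cebpa were Ctsg (0.996), Egln3 (0.995) and Ttyh2 (0.994), to Cebpb Edem2 (0.989), Pgap2 (0.983) and Calr (0.982), and to Cebpd Id2 (0.992), Ms4a3 (0.986) and Cd68 (0.985). Mpeg1 (0.986), Ptger2 (0.980) and Hlx (0.979) were nearest to Irf8, Man2b1 (0.995), Slco4a1 (0.994) and Tnfrsf1a (0.994) to Gfi1, and Tor1aip1 (0.996), Smad1 (0.995) and Erg (0.994) to Runx1.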

How the data were processed

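Total RNA (Trizol, 6 ug labelled, per the labels' protocols) was hybridised to 24 one-colour arrays. Per the submitters' processing notes, the authors ran RMA (version not given in the sources used here) and deposited log2 values, from 3.33 to 14.5. Of 45101 probe sets, 64 controls, 932 with several symbols and 9160 with none were left out, and 34741 of 34945 matched the reference by Entrez ID. The brightest probe set stood for each of 18193 genes. One limma 3.58.1 fit (R 4.3.3) of 8 group means over 24 arrays gave all comparisons, with 16 residual degrees of freedom and Benjamini-Hochberg adjustment over genes at 0.05. P-values measure the spread between arrays, whose number limits precision. An exact test of 3 against 3 cannot go below 0.1.

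Members and lists were chosen with earlier results of these data known. All members were named, with up to 3 called genes per list and comparison by adjusted p and the 3 most alike genes per member. Further list and marker genes were named after their values were seen. On simulated data (18193 genes, KO against WT in LSK GFPhi), changes of 0.5, 1 and 2 were recovered in 29.9%, 83.6% and 97.0%, with 6.04% false calls. The simulation drew independent normal noise for each gene and array and changed genes only in KO LSK GFPhi. Residuals of the real arrays correlated, so these shares need not hold for the real calls. Replicate numbers were taken to pair arrays where every same-numbered pair's residuals had r above 0.1. The labels do not say whether same-numbered arrays share animals, and the KO arrays numbered 3 of LK GFPneg and LK GFPhi differed in Eif2s3y. The lowest r of KO against WT was 0.276 for LSK GFPneg-lo, 0.359 for LK GFPneg, 0.175 for LK GFPhi and 0.0238 for LSK GFPhi, whose numbers therefore do not pair, and 0.169 for the difference between the LK effects. Between WT populations every pair passed this rule, with a lowest r from 0.171 (LK GFPneg against LSK GFPneg-lo) to 0.582 (LK GFPhi against LSK GFPhi). Between KO populations LK GFPhi against LSK GFPneg-lo (0.0832) and LSK GFPhi against LK GFPneg (-0.0176) failed it, and the other pairs passed. The main fit had no block, so it tested the population comparisons as unpaired. Alternatives are given in the closing section. Protein sequences were not used here.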

Additional observations from a re-analysis of the deposited data

Results flagged for a closer look

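The KO effect on Cebpd differed between populations in 3 tests of the difference itself. It was higher in LSK GFPhi than in LK GFPneg by 2.04 (limma's adjusted p = 0.000400), lower in LK GFPneg than in LSK GFPneg-lo (-1.85, adjusted p = 0.00280), and higher in LK GFPhi than in LK GFPneg by 1.21 (adjusted p = 0.0341). With the replicate number as a block, a pairing the labels do not state, Irf8 and Gfi1 were also called between LK GFPhi and LK GFPneg (limma's adjusted p = 0.00460 and 0.0223). LK GFPneg, where the KO arrays of Cebpd lay below the WT arrays without a call, is part of each of the 3 Cebpd differences. Array weights, median centring and each array left out in turn were among 25 alternatives. Under them the third Cebpd difference lay between 0.67 and 1.36, and its call held in 13 and was lost in 12.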

How the results depend on the processing

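For KO against WT, the 28 member results gave 532 alternative values, of which 495 stayed on their side of the threshold, 24 lost the call and 13 gained it. The sign changed in 34 of the 532, none of them called. On their side stayed 237 of 259 values of the mean effect (4 changed sign), 767 of 798 of WT pairs (10), 783 of 798 of KO pairs (14) and 1022 of 1050 of differences (36), again with no called value changing sign. Irf8 in LK GFPhi and Cebpd in LSK GFPhi were called under all 19 alternatives.

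Members called in LSK GFPneg-lo went from 1 to 0 with only the compared groups and 2 with array weights, and in LK GFPneg from 0 to 1 with array weights. In LSK GFPhi they went from 2 to 1 with all probe sets, trend and robust variance, median centring, a 2-fold minimum, the Eif2s3y covariate or the 4 KO arrays numbered 1 left out (the last 2 added after seeing the data), to 1 to 2 with single arrays left out, and to 3 with only the compared groups or array weights. In LK GFPhi they went from 3 to 1 with only the compared groups, 5 with the replicate block, and 2 to 4 with single arrays left out. Member calls among differences went from 3 to 6 with the replicate block, 9 with array weights and 2 to 5 without single arrays (5 without KO LK GFPhi replicate 3). WT pair calls (28) stayed within 25 to 31 and KO pair calls (30) within 28 to 32.

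Over all genes, the calls in LSK GFPneg-lo, LSK GFPhi, LK GFPneg and LK GFPhi numbered 389, 837, 483 and 1740. With the replicate block they numbered 844, 1367, 888 and 4034 (the LSK GFPhi numbers do not pair), with array weights 1120, 1288, 1210 and 3240, and with a 2-fold minimum 172, 384, 237 and 504. A fit of the compared groups gave 199 in LSK GFPneg-lo, 216 in LK GFPneg and 491 in LK GFPhi. The Eif2s3y covariate gave 210 in LSK GFPneg-lo, 499 in LSK GFPhi and 209 in LK GFPneg, and all probe sets 2918 in LK GFPhi. Single arrays left out gave 232 to 357, 570 to 715, 293 to 468 and 1060 to 2087. Counts moved by over 1.5 times without WT replicate 1 (232) or KO replicate 3 (244) of LSK GFPneg-lo, WT replicates 1 (320) or 3 (293) of LK GFPneg, and WT replicates 1 (1113) or 3 (1060) or KO replicate 3 (1088) of LK GFPhi. The causes were not tested.

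The block changed no member call of KO against WT beyond Spi1 and Cebpa in LK GFPhi.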

Other observations

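Marker genes outside the myeloid factors also differed with genotype. Over all genes 1.26% were called higher in LSK GFPneg-lo, 2.91% in LSK GFPhi and 5.78% in LK GFPhi, where 3.79% were called lower. Of 6 stem cell markers, 2 rose in LSK GFPneg-lo of KO mice, 4 in their LSK GFPhi and 4 in their LK GFPhi cells, and their mean level in LK GFPhi was 8.20 to 8.45 in KO against 6.26 to 6.74 in WT. Of 7 endothelial markers, 4, 3 and 3 rose in the same populations and 1 fell in LK GFPhi. B cell and T cell markers stayed near 6 on the log2 scale, with mean levels of 5.88 to 6.78 and 5.81 to 6.18 over all arrays.

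In KO LK GFPhi the eosinophil granule genes Prg2 (8.27, 10.18 and 11.96) and Epx (6.81, 8.85 and 11.66) exceeded every WT array (at most 5.85 and 5.56), as did the mast cell protease genes Mcpt8 (11.23, 10.50 and 11.65 against 8.49 to 9.44) and Cpa3 (10.95, 10.60 and 11.96 against 8.58 to 9.34). Replicate 3 was the highest for all 4 genes.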
